A study of Mus musculus with 12 samples.

Results

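*Htra4*, *Rasd2* and *Odf3l2* were followed in single muscle fibers of the extensor digitorum longus (EDL), a fast hindlimb muscle of the mouse, as 3 genes of 55367 gene symbols. They were chosen by their TPM in the comparison of the aged groups, where their RNA was far higher in the aged fibers that stain abnormally with Fluo-4, a fluorescent calcium indicator, than in the aged fibers that stain normally. That difference is therefore given only as a description, and the new information lies in the young fibers, the gene families, the partners of the encoded proteins and the neighbouring genes. RNA of C57BL/6J mice was sequenced in 3 groups of 4 samples: fibers of 3–4-month-old mice (Young), Fluo-4 normal fibers of 26–28-month-old mice (Aged normal) and Fluo-4 abnormal fibers of the same age (Aged abnormal). The fibers were freed with collagenase and the aged ones were sorted under a fluorescence stereomicroscope, and the labels name no transgene or drug in any group. The study describes the abnormal staining in aged males, and the labels give no sex. The sources used here do not give the number of mice or fibers behind a sample, so the p-values measure only the spread between these samples, which may be partly technical.

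HtrA4 is a secreted serine protease, a member of the HtrA family whose relatives cleave extracellular matrix proteins and carry an insulin-like growth factor binding domain. *Rasd2* encodes Rhes, a small GTPase related to Ras that is best known from the striatum of the brain, where it acts in dopamine and mTOR signaling. *Odf3l2*, also named *Cimap1d*, belongs to the outer dense fiber 3 family, whose founding member is a protein of the sperm tail.

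In the annotation of GRCm39, *Htra4* (ENSMUSG00000037406.9) lies at chr8:25514945-25528990 on the minus strand, *Rasd2* (ENSMUSG00000034472.15) at chr8:75940572-75950874 on the plus strand and *Odf3l2* (ENSMUSG00000035963.10) at chr10:79475343-79481880 on the minus strand. All of them are protein-coding genes. The libraries kept no record of strand, so reads from overlapping exons cannot be told apart. The exons of *Htra4* shared 149 bp (6.01% of their length) with *Tm2d2* and 792 bp (31.96%) with the long non-coding RNA *Gm16933* on the opposite strand. *Gm16933* was listed at 0.267 ± 0.273 TPM (SD, n = 4) in Young, 0.0415 ± 0.0466 TPM (SD, n = 4) in Aged normal and 0.378 ± 0.209 TPM (SD, n = 4) in Aged abnormal, far below *Htra4* and likewise lowest in Aged normal. *Odf3l2* shared 12 bp with the long non-coding RNA *Gm47163*, and *Rasd2* shared no exon with another gene. No further gene held a copy of at least 100 bp at 95% identity to any of the 3 transcripts.

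TPM corrects for transcript length and gives every sample the same total, so levels of different genes can be set beside each other on that scale. Read counts were not used here, so depth is unknown and no interval for counting error could be given. Differences between groups are given on the log2(TPM + 1) scale, which understates the change of low genes, and were fitted with limma over 14426 genes with a Benjamini-Hochberg adjustment. A gene was called when its adjusted p-value was under 0.05. Over all 14426 genes, Aged abnormal exceeded Aged normal in 1062 (7.36% called higher), fell below it in 287 (1.99%) and did not overlap with it in 2020 (14%). Against Young, Aged abnormal was called higher in 879 genes (6.09%), lower in 347 (2.41%) and did not overlap in 2337 (16.2%). Aged normal was called higher than Young in 81 genes (0.561%), lower in 85 (0.589%) and did not overlap in 1152 (7.99%). An unadjusted p under 0.05 (limma) was far more common. It was reached by 3693 genes for abnormal against normal, 3323 for abnormal against young and 1865 for normal against young. The split depended on scaling: with TMM-type factors, Aged abnormal was higher than Aged normal in 368 genes and lower in 478, and higher than Young in 506 and lower in 621. Rescaling without the mitochondrially-encoded genes gave 635 higher and 320 lower between the aged groups. The median difference of all genes between them was 0.10 (log2) as deposited and 0.011 with TMM-type factors.

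*Htra4* fell in the Fluo-4 normal fibers of aged mice and in the Fluo-4 abnormal fibers overlapped with young fibers. In Young it was at 10.8, 19.3, 7.92 and 9.08 TPM, in Aged normal at 0.383, 0.10, 1.35 and 1.26 TPM, and in Aged abnormal at 8.53, 11.9, 9.51 and 14.7 TPM. All 4 normal samples lay at or under 1.35 TPM, below every other sample, and the young and abnormal samples overlapped. The means were 11.8 ± 5.13 TPM (SD, n = 4) in Young, 0.772 ± 0.624 TPM (SD, n = 4) in Aged normal and 11.1 ± 2.73 TPM (SD, n = 4) in Aged abnormal. Normal fibers were 15.3-fold below young fibers, a difference of −2.85 on the log2 scale (SE 0.29, limma adjusted p = 3.8e-04). Among 6021 genes with at least 5 TPM in either of these groups this was the largest fall. Abnormal and young fibers differed by −0.023 (SE 0.29, limma adjusted p = 0.98). Abnormal fibers were 14.4-fold above normal fibers, a log2 difference of 2.82 (SE 0.29), and number 2, after *Mss51* (2.91), of the 1278 genes that had at least 5 TPM in Aged abnormal and no overlap with Aged normal. For all 3 genes, the comparisons with Young reuse the aged samples that chose them, so they are not independent of the choice.

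*Rasd2* rose from young to aged normal and again to aged abnormal fibers, and was the only one of the 3 to exceed Young in both aged groups. It was at 0.71, 1.42, 2.06 and 0.741 TPM in Young, at 3.29, 4.46, 5.05 and 4.17 TPM in Aged normal and at 19.2, 29.8, 29.8 and 22.3 TPM in Aged abnormal. No group overlapped with another, and the lowest abnormal sample was above the highest normal sample by more than the whole range of the normal samples. The means were 1.23 ± 0.641 TPM (SD, n = 4), 4.24 ± 0.734 TPM (SD, n = 4) and 25.3 ± 5.36 TPM (SD, n = 4). Abnormal fibers held 20.5 times the young level, a log2 difference of 3.58 (SE 0.21, limma adjusted p = 3.1e-06), which ranked second from the top of 6306 genes with at least 5 TPM in either group. Normal fibers held 3.44 times the young level, with a log2 difference of 1.26 (SE 0.21, limma adjusted p = 0.013). This last call did not hold when only these groups entered the fit (adjusted p = 0.066). Between the aged groups the ratio was 5.96 and the log2 difference 2.31 (SE 0.21), number 3 of the 1278 genes.

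Some markers of other cell types moved with age as well, and their part in the rise of *Rasd2* was not tested. The 6 immune markers summed to 1.80 to 3.02 TPM in Young, 5.68 to 15.5 TPM in Aged normal and 9.32 to 16.2 TPM in Aged abnormal. Of them, the macrophage lysozyme *Lyz2* was called higher in both aged groups than in Young (log2 2.38 and 2.19, limma adjusted p = 3.5e-04 and 0.0021). *Cd3e* was called higher in Aged abnormal than in Aged normal (log2 1.20, limma adjusted p = 0.0029) and than in Young (log2 0.87, limma adjusted p = 0.014). Its means were 1.17, 0.718 and 3.05 TPM in Young, Aged normal and Aged abnormal. The other immune markers were not called. In the same order, *Ptprc* averaged 0, 0.034 and 0.091 TPM, *Csf1r* 0.005, 0.190 and 0.060 TPM and *Cd68* 0.282, 0.282 and 1.04 TPM. *Adgre1* was at most 0.011 TPM and was not tested, so the list did not move as a whole. The 6 Schwann cell markers summed to 0.884 to 2.03 TPM, 1.42 to 7.09 TPM and 3.87 to 8.33 TPM in the same order, with *Mbp* and *Sox10* called higher in Aged abnormal than in Young. Among the neuron markers, *Snap25* and *Chat* were at 0 in all 12 samples. In such samples, more cells of a type and more RNA per cell cannot be told apart.

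*Odf3l2* was low in the Fluo-4 normal fibers, as *Htra4* was, but with more spread. Its values were 12.3, 10.7, 12.6 and 3.08 TPM in Young, 1.38, 1.93, 1.84 and 5.14 TPM in Aged normal and 9.65, 10.2, 21.4 and 21.1 TPM in Aged abnormal. Replicate 4 of Young was low and replicate 4 of Aged normal was high, so that these groups overlapped through this pair of samples alone, while the aged groups did not overlap. The means were 9.68 ± 4.48 TPM (SD, n = 4), 2.57 ± 1.73 TPM (SD, n = 4) and 15.6 ± 6.55 TPM (SD, n = 4). Young exceeded Aged normal 3.76-fold, a log2 difference of −1.54 (normal minus young, SE 0.41), which was not called over all genes (limma adjusted p = 0.097). It was called in some alternatives: without replicate 4 of Young the difference was −1.95 (limma adjusted p = 0.023). With all samples and a filter of 1 TPM it was −1.54 (limma adjusted p = 0.047). Ranked from the largest fall, *Odf3l2* was number 5 of the 6021 genes. Aged abnormal exceeded Young 1.61-fold, a log2 difference of 0.69 (SE 0.41, limma adjusted p = 0.35), with overlapping samples. Aged abnormal exceeded Aged normal 6.06-fold, a log2 difference of 2.23 (SE 0.41), number 5 of 1278 genes, between *Mybph* (2.23, SE 0.47) and *Ctxn3* (1.81, SE 0.20).

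**Figure D1:**
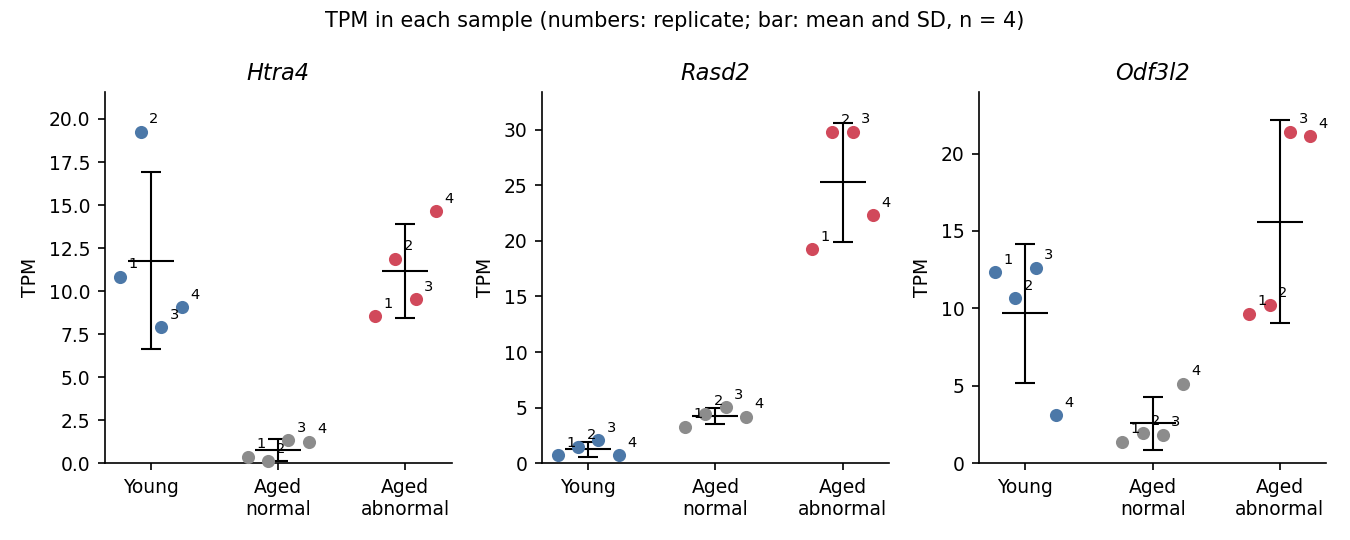
TPM of *Htra4*, *Rasd2* and *Odf3l2* (linear axes from 0) in the 4 samples of each group, with the replicate number beside each point and bars for the mean and SD. The normal samples of *Htra4* lie between 0.10 and 1.35 TPM, below all others, whereas *Rasd2* steps up from 1.23 to 4.24 to 25.3 TPM, and *Odf3l2* overlaps between Young and Aged normal only through replicate 4 of each.

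Replicates of Aged normal and Aged abnormal share numbers. Within each number the abnormal sample was higher for all 3 genes, as it must be where the aged groups do not overlap. The ratio of abnormal to normal was even for *Rasd2* (5.85, 6.67, 5.90 and 5.34 for numbers 1 to 4). It was uneven for *Htra4* (22.3, 119, 7.06 and 11.7), where the ratio of 119 rests on the lowest value, 0.10 TPM, and for *Odf3l2* (6.99, 5.29, 11.6 and 4.11). The order of the groups by mean thus differed between the genes. For *Rasd2* it was abnormal, normal, young, with no overlap at either step. For *Htra4* and *Odf3l2* normal was at the bottom, and Young and Aged abnormal overlapped and were not called different. Of the 3 genes, 1 was called higher in Aged abnormal than in Young, against 6.09% of all genes. In Aged normal 1 was called higher than in Young, against 0.561% of all genes, and 1 lower, against 0.589%.

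**Figure D2:**
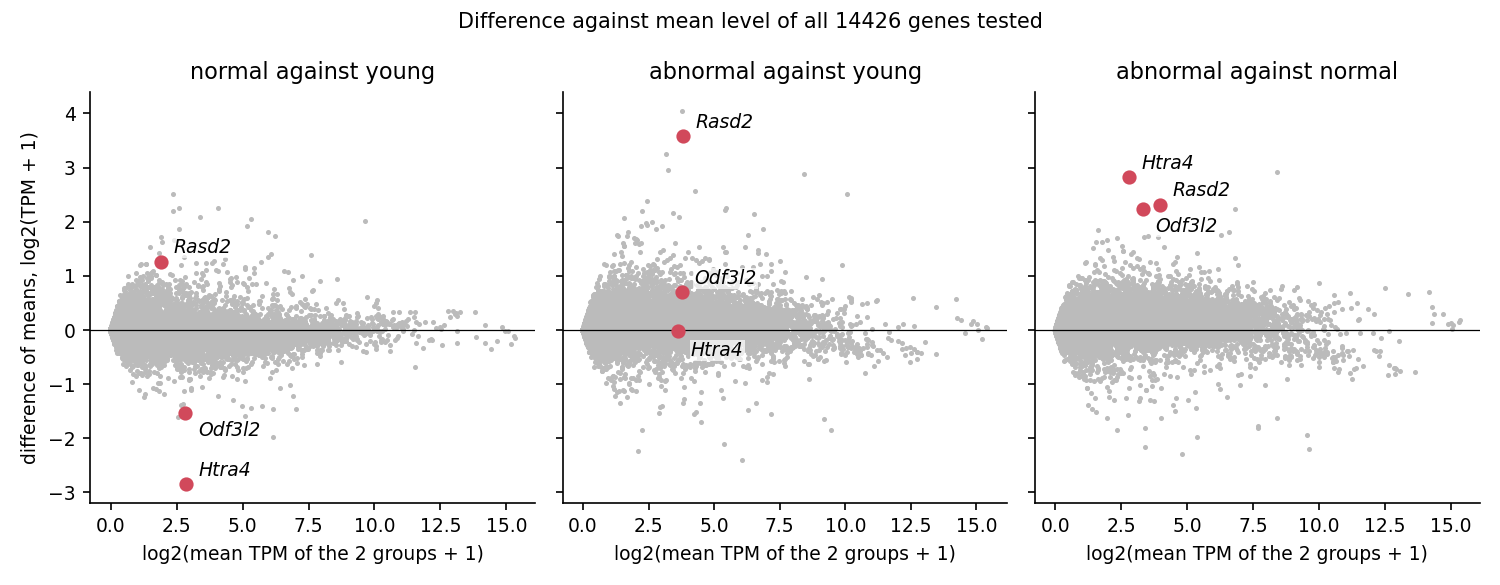
Difference of group means on the log2(TPM + 1) scale against the log2 mean level of the 2 groups compared, for the 14426 genes tested (gray) and the 3 genes (red). *Htra4* (−2.85) is at the bottom edge for normal against young and near 0 for abnormal against young, where *Rasd2* (3.58) is near the top. The right panel is the comparison that chose the genes.

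The pattern over the 12 samples set *Rasd2* apart from the other pair. Pearson's r of log2(TPM + 1) was 0.823 between *Htra4* and *Odf3l2*, 0.157 between *Htra4* and *Rasd2*, and 0.416 between *Rasd2* and *Odf3l2*. After the group means were removed r was 0.358, 0.127 and 0.369, so most of the first value came from the groups. These are descriptions across samples that share groups and carry no test. Among 9455 genes, those most like *Htra4* were *Park7* (0.945), *Ncoa1* (0.943), *Pnck* (0.939), *Casq1* (0.93), the calcium-binding protein of the sarcoplasmic reticulum, and *Leo1* (0.925). Those most like *Rasd2* were *Chrnb1* (0.983), a subunit of the muscle acetylcholine receptor, *Plekhb1* (0.979), *Bin1* (0.973), which shapes the T-tubule membrane, *Rhpn2* (0.969) and *Ddc* (0.967). Those most like *Odf3l2* were the histone variant gene *Macroh2a1* (0.953), *Dhx38* (0.95), *Cdyl* (0.924), the ferritin heavy chain gene *Fth1* (0.922) and *Rtkn2* (0.911). A correlation of at least 0.9 was reached by 94 genes with *Rasd2*, 19 with *Htra4* and 7 with *Odf3l2*, and the median r over all genes was 0.334, 0.302 and 0.349. In TPM, *Chrnb1* was at 19.4 to 23.1 in Young, 26.9 to 34.4 in Aged normal and 54.5 to 66.4 in Aged abnormal, without overlap.

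Of the HtrA family, *Htra1*, a secreted protease like HtrA4, was higher in Aged abnormal than in both other groups. Its values were 2.80, 5.76, 9.87 and 3.24 TPM in Young, 5.51, 4.63, 6.99 and 9.13 TPM in Aged normal and 14.3, 11.5, 14.2 and 17.8 TPM in Aged abnormal, where no abnormal sample overlapped with the rest. Abnormal exceeded young by 1.38 (log2, SE 0.29, limma adjusted p = 0.011), a call that held in all 15 alternatives, and normal against young gave 0.33 (adjusted p = 0.69). Abnormal exceeded normal by 1.05 (log2, SE 0.29, adjusted p = 0.038), which held in 5 of 15 alternatives (adjusted p 0.018 to 0.097). The means of *Htra1* were 5.42 ± 3.24, 6.57 ± 1.97 and 14.5 ± 2.57 TPM (SD, n = 4 each), so that its normal fibers stood near the young ones. *Htra2*, the mitochondrial family member, was at 10.5, 10.4 and 7.66 TPM in Young, Aged normal and Aged abnormal and was not called (log2 −0.40 for abnormal against normal, adjusted p = 0.19). *Htra3* was at 1.48, 1.72 and 1.92 TPM and was not called either.

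Secreted HtrA proteases act on the matrix and on growth factors of the insulin-like growth factor (IGF) and TGF-beta families. Of the 28 tested genes of that axis, 8 were higher (against 7.36% of all genes) and 0 lower (1.99%) in Aged abnormal than in Aged normal (limma), with a median log2 difference of 0.30 against 0.10 for all genes. With TMM-type factors 6 were called and the median was 0.14 against 0.011, and with the replicate number as a block, which pairs the aged samples, 5 were called. *Igfbp5*, an IGF binding protein, was at 34.9 ± 5.73 TPM in Young, 20.5 ± 3.62 in Aged normal and 46.5 ± 10.7 in Aged abnormal (SD, n = 4 each), and abnormal exceeded normal by 1.13 (log2, limma adjusted p = 0.0022). Abnormal against young gave 0.39 (adjusted p = 0.18) and normal against young −0.74 (adjusted p = 0.056). *Acvr2a*, a receptor of activins and myostatin, was at 6.68 ± 1.07, 3.89 ± 1.22 and 11.1 ± 2.54 TPM (SD, n = 4 each) in the same order, with a log2 difference of 1.32 between the aged groups (limma adjusted p = 0.0028). Against Young, abnormal gave 0.65 (adjusted p = 0.072) and normal −0.68 (adjusted p = 0.14). The calls of *Igfbp5* and *Acvr2a* between the aged groups held in all 15 alternatives. *Gdf11*, a close relative of myostatin, rose from 0.204 to 0.913 TPM (log2 0.64, adjusted p = 0.0081) and lost its call with the replicate block (adjusted p = 0.051), as *Igf2r* and *Tgfbr1* did. Against Young, 4 of the 28 genes were higher in Aged abnormal (against 6.09% of all genes) and 0 lower (2.41%). In Aged normal 0 were called (limma, 5 at an unadjusted p under 0.05, against 1865 of all 14426 genes).

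*Rasd1*, the closest relative of *Rasd2* and a glucocorticoid-induced GTPase, was at 1.01 ± 1.16 TPM in Young, 1.47 ± 1.63 TPM in Aged normal and 0.645 ± 0.267 TPM in Aged abnormal (SD, n = 4 each), and abnormal against normal gave −0.38 (log2, adjusted p = 0.59). Of 29 tested small GTPases of the Ras type, 0 were called between the aged groups (limma, 5 at an unadjusted p under 0.05, against 3693 of all 14426 genes). Against Young 1 of the 29, *Rras*, was higher in Aged abnormal (log2 0.88, limma adjusted p = 0.0054), against 6.09% of all genes. The median of that list was 0.034 between the aged groups against 0.10 for all genes, and −0.044 with TMM-type factors. With these factors 1 of the 29 was called between the aged groups (*Nkiras1*, lower) and 2 between Aged abnormal and Young (*Rras*, higher, and *Rit1*, lower). Over all genes tested, 846 and 1127 were called in these comparisons with the same factors. Of 19 genes for known partners of Rhes and its pathway, 18 were above 0 in abnormal against normal with a median log2 difference of 0.27. This shift depended on scaling: with TMM-type factors 14 were above 0 and the median was 0.075, against 0.011 for all genes. Against Young, 1 of the 19 was called higher in Aged abnormal (*Pik3r1*, log2 0.75, limma adjusted p = 0.037), against 6.09% of all genes. In Aged normal 0 were called (limma, 3 at an unadjusted p under 0.05, against 1865 of all 14426 genes). The call of *Pik3r1* held in 6 of 15 alternatives and was lost with TMM-type factors, and in Aged normal against Young it was at 0.87 (adjusted p = 0.061).

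The relatives of *Odf3l2* were near or at 0. *Odf3* had 0 TPM in every sample, and *Odf3b* and *Odf3l1* were at most 0.406 and 0.146 TPM and were listed at 0 in all Aged normal samples. Of 42 genes of the sperm tail and motile cilium, 40 were found by name and 15 reached the mean of 0.02 TPM needed for the test. Of these 15, 1, the tektin gene *Tekt1*, was higher in Aged abnormal than in Aged normal (log2 0.67, limma adjusted p = 0.044), against 7.36% of all genes. It was also the 1 called higher than in Young (log2 0.86, limma adjusted p = 0.015), against 6.09%. The first call of *Tekt1* held in 3 of 15 alternatives and the second in all 15. *Tekt1* was at 0.440, 0.664 and 1.67 TPM in Young, Aged normal and Aged abnormal, well below *Odf3l2*. The median of the 15 genes was 0.054 between the aged groups.

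**Figure D3:**
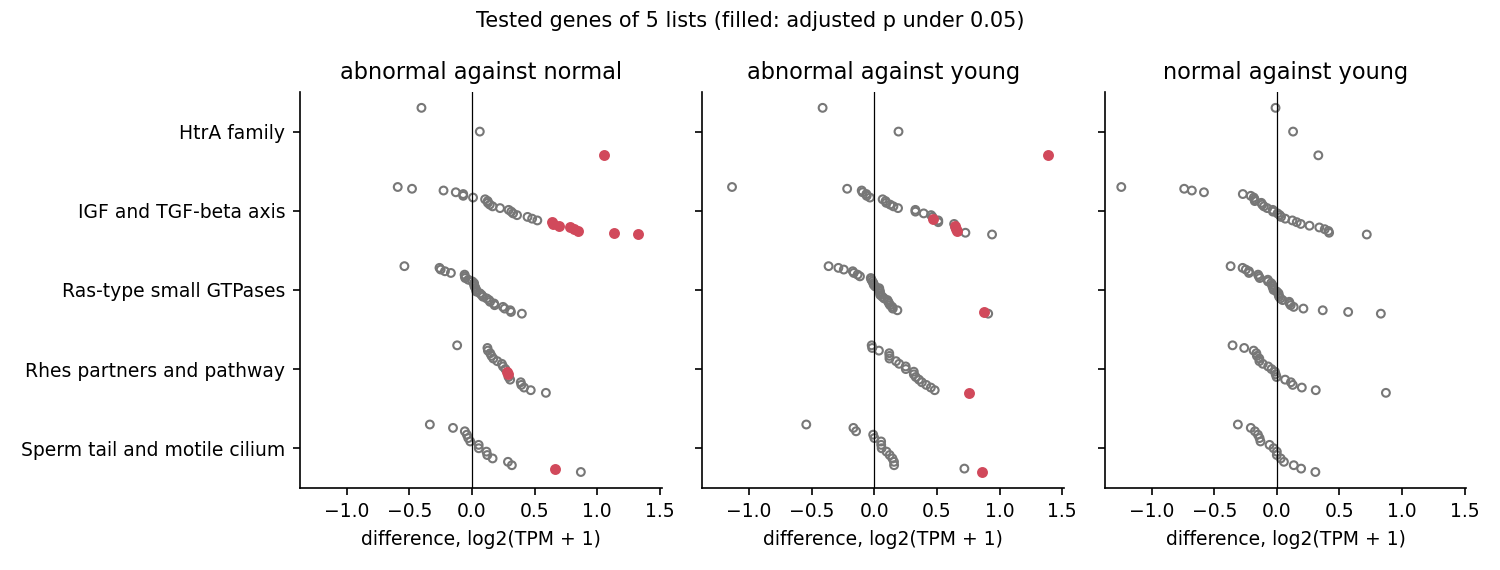
Difference on the log2(TPM + 1) scale of each tested gene of 5 lists, from left to right for abnormal against normal, abnormal against young and normal against young, with filled points for an adjusted p-value under 0.05. The IGF and TGF-beta list holds 8 filled points in the left panel, and the right panel holds none.

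Around the 3 genes, 18 neighbours were examined, 3 on each side, of which 14 were tested. Among these 14, the largest difference was next to *Odf3l2*. *Shc2*, an adaptor protein of receptor tyrosine kinases, lies 1574 bp beyond the 3′ end of *Odf3l2* on the same strand. It was at 0.383, 0.637, 0.645 and 0.079 TPM in Young, 0.536, 0.691, 0.301 and 1.07 TPM in Aged normal and 2.74, 5.76, 3.48 and 4.51 TPM in Aged abnormal. The abnormal samples lay above all others. The log2 difference was 1.62 against normal (SE 0.21, limma adjusted p = 8.6e-04) and 1.82 against young (SE 0.21, adjusted p = 3.5e-04), and both calls held in all 15 alternatives. Normal against young gave 0.20 (SE 0.21, adjusted p = 0.75). In Young, where *Odf3l2* was at 9.68 TPM, *Shc2* was at 0.436 ± 0.267 TPM (SD, n = 4). The long non-coding RNA *Gm47163*, which lies on the opposite strand and spans the gap between the pair, was at 0 to 0.041 TPM in Young, 0 to 0.202 TPM in Aged normal and 0.23 to 0.678 TPM in Aged abnormal. It begins at chr10:79473690, within the span of *Shc2*, and any exons shared with *Shc2* were not examined. With no record of strand, the part of *Shc2* reads in the values of *Gm47163* was not tested. On the other side of *Odf3l2*, *Tpgs1* and *Cdc34* were not called.

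Next to *Htra4*, *Tm2d2*, which shares exons with it, was at 74.2, 66.4 and 76.1 TPM in the order of the groups above and was not called (log2 0.19 for abnormal against normal, limma adjusted p = 0.14). *Plekha2*, which lies 170 bp away, was at 3.62, 1.99 and 2.85 TPM and was not called (normal against young, log2 −0.62, adjusted p = 0.24). *Adam9* (log2 0.51, limma adjusted p = 0.028) and *Fgfr1*, a fibroblast growth factor receptor (log2 0.55, limma adjusted p = 0.014), were higher in Aged abnormal than in Aged normal. *Adam9* lies 7849 bp and *Fgfr1* 474680 bp from *Htra4*. Only *Fgfr1* was also higher than in Young (log2 0.71, adjusted p = 0.0032). The tested neighbours of *Rasd2* lie far from it, from 84341 bp (*Mcm5*) to 1674702 bp (*Nr3c2*). *Tom1*, 140295 bp away, was higher in Aged abnormal than in Aged normal (log2 0.39, limma adjusted p = 0.028), whereas *Hmox1*, *Mcm5*, *Iqcm* and *Nr3c2* were not called. With TMM-type factors *Adam9*, *Fgfr1* and *Tom1* lost their calls between the aged groups, and *Shc2* kept its call. Between Aged normal and Young, 0 of the 14 were called (limma, 3 at an unadjusted p under 0.05, against 1865 of all 14426 genes).

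**Figure D4:**
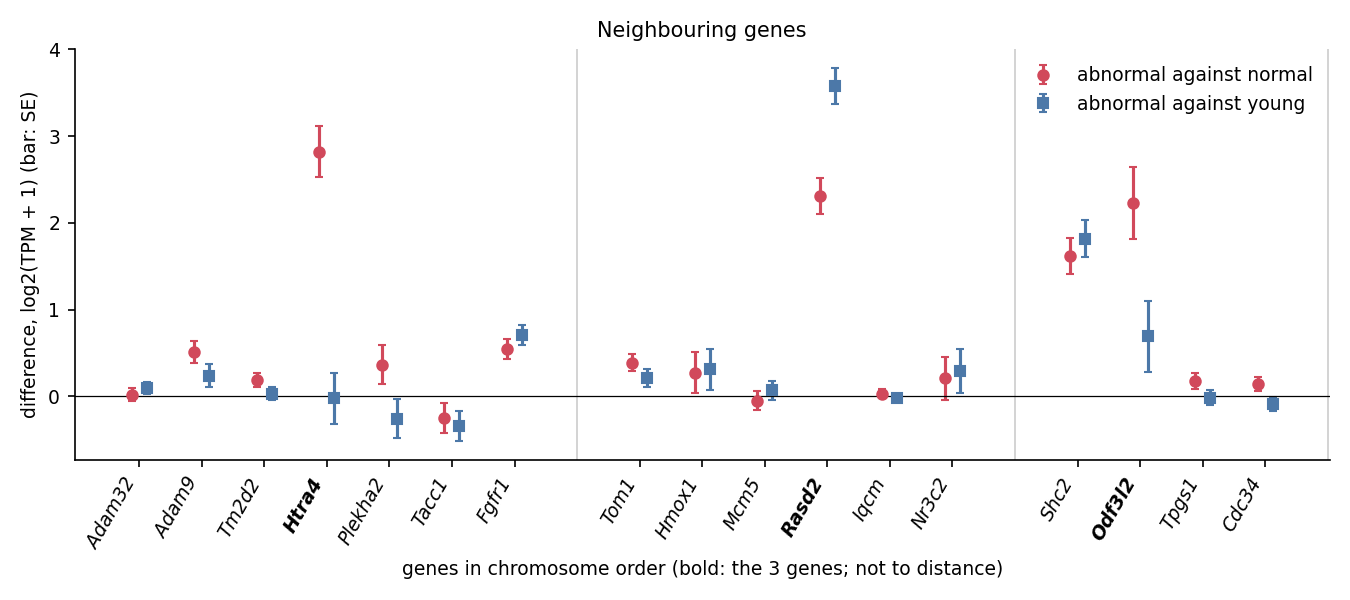
Difference on the log2(TPM + 1) scale with its SE for the tested neighbours, in chromosome order around *Htra4*, *Rasd2* and *Odf3l2* (bold), for abnormal against normal (circles) and abnormal against young (squares). *Shc2* is at 1.62 and 1.82, and all other neighbours are between −0.34 and 0.71.

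**Figure D5:**
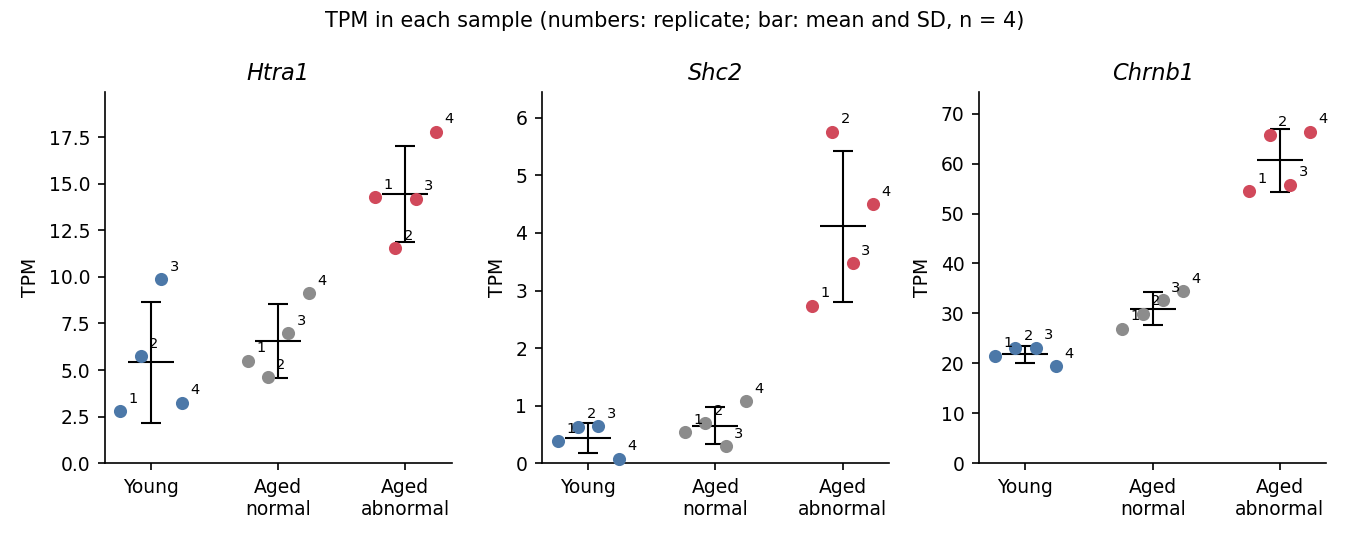
TPM (linear axes from 0) in the 4 samples of each group, with means and SD, for the family member *Htra1*, the neighbour *Shc2* and *Chrnb1*, the gene with the pattern most like *Rasd2*. In each of the 3, every abnormal sample lies above all normal and young samples.

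The promoter of *Rasd2* is shown because it is the start of the gene with the largest rise over Young among the 3, although no value here measures binding or methylation at it. The sequence table of RefSeq (GRCm38.p6) held an entry for 1 of the 3 genes. Its 250 bases upstream matched GRCm39 exactly at chr8:75940322-75940571 on the plus strand, and end at the base before the annotated start. Capitals mark the only E-box (CANNTG), the site bound by myogenic and other basic helix-loop-helix factors, which begins at position −186 counted from the start.
Rasd2 promoter: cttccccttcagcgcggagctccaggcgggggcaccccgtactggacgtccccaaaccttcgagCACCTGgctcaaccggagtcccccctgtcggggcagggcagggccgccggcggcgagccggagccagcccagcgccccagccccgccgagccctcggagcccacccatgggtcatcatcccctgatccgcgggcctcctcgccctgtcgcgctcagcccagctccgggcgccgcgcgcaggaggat
The sequence was rich in G and C (75.2%, against a median of 52.4% over 32536 promoters) and held 27 CpG, a number reached by 8.64% of promoters (median 6). An E-box was present in 66.2% of promoters of this length. On both strands, no match was found for an AP-1 site (TGANTCA, in 6.73% of promoters), a CREB-type core (TGACG, 17.9%), an NFAT core (GGAAA, 55.7%), an ACGTG core (16.7%), a nuclear receptor core (AGGTCA, 14%), a TATA box (TATAAA, 12.3%), a MEF2 site (2.89%) or a CArG box (1.48%).

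Of the myosin heavy chains that mark fiber types, *Myh4* was called between the aged groups, and its part in the levels of *Htra4* and *Odf3l2* was not tested. *Myh4*, whose myosin marks type IIb fibers, was at 9648 ± 961.0 TPM in Young, 8206 ± 1478 TPM in Aged normal and 13013 ± 2488 TPM in Aged abnormal (SD, n = 4 each). The call between the aged groups (log2 0.66, limma adjusted p = 0.020) was lost with TMM-type factors (adjusted p = 0.14), and *Myh4* was not called between either aged group and Young. *Myh1*, of type IIx fibers, was at 206.1 ± 62.2, 334.3 ± 227.2 and 76.1 ± 48.0 TPM and was not called (adjusted p = 0.087 between the aged groups), and neither were *Myh2*, at 8.96, 11.7 and 5.68 TPM, and *Myh7*, at most 0.128 TPM on average in any group. As the labelled cell type implies, muscle fiber RNA was abundant, with 5 markers that summed to 95830 to 134321 TPM. Satellite cell, endothelial, fibroblast, erythroid, smooth muscle and adipocyte markers gave 0 calls (limma) in the 3 comparisons. Of 28 tested markers, 2, 4 and 5 had an unadjusted p under 0.05 (abnormal against normal, abnormal against young, normal against young). Over all 14426 genes the counts were 3693, 3323 and 1865. *Adipoq*, *Plin1* and *Lep* were at 0 in all samples.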

How the data were processed

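RNA-seq of 12 samples of EDL muscle fibers was used, with 4 samples in each of Young, Aged normal and Aged abnormal. According to the labels and methods, cDNA libraries were prepared from 10 ng of RNA with SMART-Seq v4. Alignment to GRCm39 and quantification were done in DRAGEN 4.3, and the authors deposited TPM values per gene symbol, 1 file per sample. Depth is unknown and the release of the annotation is not given in the sources used here. Of 55367 symbols, 114 stood on several lines and were summed, and names were matched to GENCODE vM39 and RefSeq, leaving 2876 unmatched. Protein-coding and mitochondrially-encoded genes with a mean of at least 0.02 TPM in 1 or more groups were tested on log2(TPM + 1) with limma 3.58.1 in R 4.3.3, all 3 groups in 1 fit with a variance trend, two-sided, p-values adjusted by Benjamini-Hochberg.

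The 3 genes, the gene lists and the tests were chosen with earlier results of these data known. The genes named are the 3 genes, their families, the 5 genes of highest correlation with each among those with at least 1 TPM, the genes next to them in rank, 3 neighbours on each side, the myosin heavy chains and, of each list, up to 3 called genes of smallest p. Further genes called against young or under an alternative, and *Igf2r*, *Tgfbr1*, the immune markers, *Mbp* and *Sox10*, were named after their values were seen. Some list genes called between the aged groups are not reported here. Neighbours and overlaps came from GENCODE vM39 and copies from BLAST 2.17.0. Of the neighbours, 4 were not tested, 2 for low values and 2 not matched by name.

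Same-numbered Aged abnormal and Aged normal samples deviated together from their group means in 5614 genes (r = 0.454, 0.39, 0.424 and 0.308, against -0.379 to 0.254 for different numbers), so the number was treated as a pairing in an alternative with the replicate block. Other alternatives were a pseudocount of 0.1, no filter or a filter of 1 TPM, TMM-type factors (trims of 30% and 5%), rescaling without mitochondrially-encoded genes, only the groups compared and leaving out each sample. The fit was tested on simulated data for abnormal against young with 14426 genes, of which 200 were changed. These were drawn only from genes with a mean level of about 5 TPM or more, with normally distributed noise. The fit called 88% of genes changed 2-fold and 98% of those changed 4-fold, shares that do not cover lower genes. False calls made up 5.1%, and groups without a change gave 0 calls. Python 3.11.15 with matplotlib 3.10.9, numpy 2.4.6 and pandas 2.3.3 was used for tables and figures.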

Additional observations from a re-analysis of the deposited data

Results flagged for a closer look

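For *Odf3l2*, replicate 4 of Aged normal, at 5.14 TPM, stood apart from the other normal samples at 1.38, 1.93 and 1.84 TPM. Its gap to the nearest of them was 0.854 of the whole range of the group, above the 95% critical value of Dixon's test for 4 samples. Of the 9 groups of 4 samples examined for *Htra4*, *Rasd2* and *Odf3l2*, 1 held such a sample, and chance gives about 1 in 20 groups. Without this sample *Odf3l2* in normal against young was -1.83 (log2, adjusted p = 0.084).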

How the results depend on the processing

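Of 135 differences of *Htra4*, *Rasd2* and *Odf3l2* recomputed under other settings, 128 kept their direction and their side of the threshold, or for abnormal against normal moved by less than 1 SD. With a pseudocount of 0.1, *Htra4* in abnormal against normal moved to 4.06 (log2). *Htra4* in abnormal against young, close to 0 throughout, changed sign without replicate 2 of Young (0.22), replicate 1 of Aged abnormal (0.084) or replicate 3 of Aged abnormal (0.037), and ranged from -0.17 to 0.22 when a sample was left out. *Odf3l2* in normal against young was called with a filter of 1 TPM (-1.54, adjusted p = 0.047) and ranged from -1.95 (without replicate 4 of Young) to -1.37 when a sample was left out. *Rasd2* in normal against young lost its call with only the groups compared (1.26, adjusted p = 0.066).

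The number of genes called moved more. Between the aged groups, 1349 genes became 846 with TMM-type factors, 567 with only the groups compared and 665 to 1456 when a sample was left out, lowest without replicate 2 of Aged abnormal. Abnormal against young gave 604 (without replicate 4 of Young) to 1220 instead of 1226, with similar losses without replicate 1 of Young (715) or replicates 2 (742) and 4 (788) of Aged abnormal. Normal against young gave 258 with a filter of 1 TPM, 69 with only the groups compared and 55 (without replicate 2 of Young) to 207 instead of 166, with 72 and 59 without replicates 1 and 3 of Young and 91, 103 and 59 without replicates 2, 3 and 4 of Aged normal. Of the family and list genes tested (HtrA 3, IGF and TGF-beta 28, Rasd 1, Ras-type 29, Rhes 19, Odf3 2, sperm tail and cilium 15), 12 were called between the aged groups. Over all 14426 genes 7.36% were called higher and 1.99% lower. The 12 became 7 with TMM-type factors, without mitochondrially-encoded genes or with only the groups compared. When a sample was left out they became 5 to 11 (5 without replicate 1 of Aged normal or replicates 2 or 3 of Aged abnormal). Against young, abnormal gave 8 of these genes, where 6.09% of all genes were called higher and 2.41% lower. It gave 3 (without replicate 2 of Aged abnormal) to 8 when a sample was left out, with 4 or 5 without replicates 2, 3 or 4 of Young or replicate 3 of Aged abnormal. Normal gave 0, but 1 with a pseudocount of 0.1, 2 with a filter of 1 TPM or TMM-type factors, and 0 to 1 when a sample was left out. Of the 14 tested neighbours, 4 were called between the aged groups, against 1349 of all 14426 genes. The 4 became 1 with TMM-type factors, 2 without mitochondrially-encoded genes and 2 to 5 when a sample was left out, with 2 without replicates 1 or 4 of Aged normal or 2 or 3 of Aged abnormal. The cause of these changes was not tested.

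With the replicate block, no call of the 3 genes against Young changed (*Rasd2* 3.58 and 1.26, *Htra4* -2.85, *Odf3l2* -1.54), 1150, 1290 and 176 genes were called in the 3 comparisons, and 8 family or list genes were called between the aged groups (instead of 12), 8 in abnormal against young and 1 in normal against young.

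Depth is unknown, so values of *Htra4* in Aged normal, *Gm16933*, *Gm47163* and the Odf3 family near 0 carry an error from counting that cannot be given here.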
